A study of Mus musculus with 24 samples.

Results

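The first 3 h of interleukin-4 (IL-4) in wild-type mouse macrophages were examined across all genes whose mean level reached at least 1 CPM (reads scaled to the size of the library) with or without the cytokine. Of 23420 genes in the table, 11345 met this rule. Marrow cells of male C57BL/6 mice aged 3 months had been grown for 6 days with M-CSF, the growth factor that turns marrow progenitors into macrophages. The cells compared here had no IL-4 pretreatment: they were left untreated for 24 h, washed and kept for another 24 h, and at the end they were either stimulated with IL-4 for 3 h or harvested unstimulated. Each group has 2 samples. The concentration of the cytokine on the labels is 20 ng/µl and is printed as labelled. They do not say whether the 2 samples came from separate animals or cultures, so the p-values measure the spread between these samples, which may be technical. The series holds 24 samples in 12 groups, and the 4 samples of this comparison belong to an experiment of 16 samples that also has IL-4-pretreated cells and cells labelled as Pparg knockout.

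IL-4 binds a receptor chain encoded by Il4ra, paired in macrophages with the common gamma chain Il2rg or with Il13ra1, and the Janus kinases on these chains phosphorylate the transcription factor STAT6. STAT6 then binds DNA and switches on genes of the alternatively activated macrophage, among them enzymes of arginine use, lectins and inhibitors of its own pathway. An exposure of a few hours mainly reads the early targets, before many of the secreted and metabolic products of the mature state have built up.

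The authors deposited 1 averaged column per group. Because each average was built from whole reads of 2 libraries, the value of each library could be separated again, and the libraries are called deeper and shallower since their replicate numbers are not known. The unstimulated libraries held 9499536 and 9010387 reads in genes and the IL-4 libraries 11255148 and 10235019, and 3 reads corresponded to 0.267 to 0.331 CPM. Of 28545 values above 0 in the 2 columns, 101 could not be separated, all at 649 CPM or more, and for these only the group mean is given. Macrophage markers were abundant in both groups: mean levels with and without IL-4 were 4834 and 4552 CPM for Csf1r, 3479 and 3702 CPM for Emr1, and 1312 and 1262 CPM for Cd68, and none of the 3 passed the test. Of 11 macrophage markers 1 rose and 4 fell. The summed mean levels of other marker lists, without and with IL-4, were 50.8 and 69.3 CPM for dendritic cells (1 of 2 compared members rose), 55.4 and 40.0 CPM for B cells (1 of 2 fell), 12.5 and 10.8 CPM for T and NK cells, 5.64 and 6.06 CPM for fibroblasts, 2.67 and 3.10 CPM for eosinophils and 0.641 and 0.137 CPM for mast cells. The list of red cells and megakaryocytes summed to 934 and 797 CPM, of which the platelet factor gene Pf4 made up 933 and 796 CPM. Within these lists Cd3e, Cd3g, Pax5, Fcer1a, Mcpt4 and Hbb-b1 were at 0.0446 CPM or less in both groups. The part of other cells in the results was not tested. Of 9 neutrophil markers compared 1 rose, Csf3r, from 49.9 and 57.3 to 121 and 109 CPM, and the summed level of that list was 190 and 191 CPM without and 259 and 235 CPM with IL-4. In these bulk samples fewer cells of a type and less RNA per cell cannot be told apart.

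About as many genes fell as rose within 3 h of IL-4. Genes were said to have risen or fallen when the Benjamini-Hochberg adjusted p of a limma test on log2(CPM + 1) was under 0.05. By that rule 2799 genes (24.7% of those compared) rose and 2826 (24.9%) fell. In 5567 of these 5625 genes the libraries of the groups did not overlap. A gene called with 2 libraries per group seldom has overlapping groups, so this count is not separate evidence for the calls. Most changes were small, since the log2 difference lay between -0.89 and 0.98 for the middle 90% of genes, with a median of -0.01 and a median standard error (SE) of 0.11. Beyond 2-fold in the group means with 1 CPM added, 552 genes (4.87%) had risen and 409 (3.61%) had fallen. The tail of large changes was mostly upward: 43 genes rose and 2 fell at least 8-fold, and 116 rose and 43 fell at least 4-fold. The shares of 24.7% and 24.9% are the background beside which the counts of each gene list below stand. The number called depended on how the spread was modelled. With no group weights 1606 genes rose and 1355 fell, while the counts beyond 2-fold were 532 and 374.

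**Figure D1:**
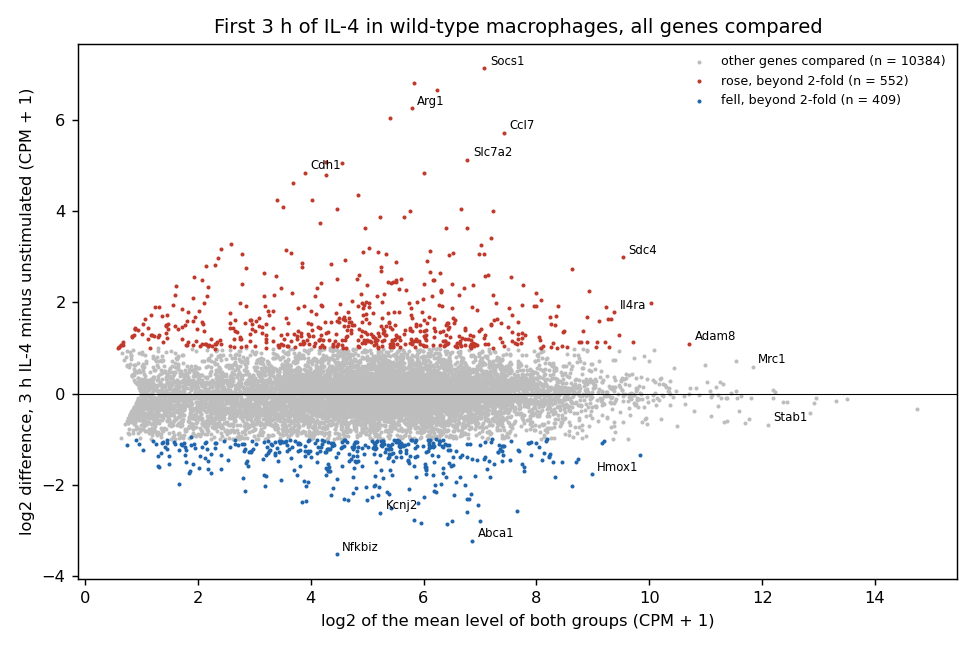
Log2 difference (3 h of IL-4 minus unstimulated, CPM + 1) of the 11345 genes compared against the log2 of their mean level (CPM + 1), with the 552 genes that rose and the 409 that fell beyond 2-fold coloured. The largest changes, up to 7.14 for Socs1, lay above 0, and the lowest was -3.53 for Nfkbiz.

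The largest relative rises were in genes that were nearly silent before IL-4. Rasgrp1, an activator of Ras, was listed at 0 in both unstimulated libraries and stood at 111 and 113 CPM after IL-4, at least 336-fold higher when set against the level of 3 reads in the unstimulated library with the higher floor. Cdh1, which encodes E-cadherin, went from 0 in both libraries to 27.8 CPM in each, at least 83.8-fold higher by the same measure. Tarm1, a receptor of myeloid cells, was also at 0 in both and reached 24.2 and 23.2 CPM, at least 70.1-fold higher. These were the genes listed at 0 in one column and at 5 CPM or more in the other.

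Inhibitors of cytokine receptor signalling were among the most raised genes. Socs1, which blocks Janus kinases, had 0.730 and 1.1 CPM without IL-4 and 265 and 271 CPM with it, a log2 difference of 7.14 (SE 0.12, limma adjusted p = 4.2e-16). Cish went from 0.313 and 0.662 to 159 and 139 CPM, and Socs2 from 0 and 0.221 to 40.3 and 33.1 CPM. In each of these genes the IL-4 libraries lay far above the unstimulated ones. Dusp4, a phosphatase that acts on MAP kinases, rose from 15.5 and 14.7 to 203 and 198 CPM (log2 difference 3.64, SE 0.11, limma adjusted p = 1.9e-13). Not all feedback genes rose: of 34 compared, 14 rose and 13 fell, with 7 and 3 beyond 2-fold and a median log2 difference of -0.03 beside -0.01 for all genes. Socs3, an inhibitor best known downstream of interleukin-6, fell from 8.97 and 11 to 3.39 and 4.14 CPM. Dusp1 fell from 34.4 and 33.7 to 9.98 and 11.4 CPM. With no group weights 11 members rose and 8 fell.

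The signal chain itself changed unevenly. Il4ra had 281 and 317 CPM without IL-4 and a mean of 1030 CPM with it, a 3.45-fold rise in the mean (log2 difference 1.79, SE 0.06, limma adjusted p = 2.4e-12, with the IL-4 value entered as 1 mean because its libraries could not be separated). Jak2 rose from 45.4 and 40.5 to 113 and 110 CPM. Il13ra1 fell from 14.8 and 15.7 to 8.20 and 7.23 CPM, and Stat6 from 314 and 333 to 265 and 246 CPM. Il2rg, Jak1 and Jak3 did not pass the test. Their log2 differences were -0.03 (SE 0.08), -0.14 (SE 0.07) and 0.00 (SE 0.10). Gab1, an adaptor between receptors and kinases, fell from 59.1 and 60.3 to 18.4 and 13.8 CPM. Of 24 receptor and JAK-STAT components, 8 rose and 7 fell, and with no group weights 4 and 6. Pparg, the nuclear receptor that other parts of the experiment target, had 24.2 and 21.9 CPM without and 26.7 and 22.7 CPM with IL-4, with overlapping groups and a log2 difference of 0.09 (SE 0.12, limma adjusted p = 0.56).

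Marker genes of IL-4 and STAT6 made up the list with the highest median. Of 33 members compared, 27 rose and 2 fell, 25 rose beyond 2-fold, and the median log2 difference was 2.65. This list gathers genes already known to respond to IL-4, so its direction is not independent evidence. Arg1, arginase 1, stood at 0.522 and 0.331 CPM before and at 99.9 and 117 CPM after IL-4 (log2 difference 6.26, SE 0.22, limma adjusted p = 1.3e-12). Slc7a2, which carries arginine into the cell, rose from 4.90 and 5.30 to 213 and 212 CPM. Retnla, a secreted resistin-like protein, went from 4.69 and 6.07 to 106 and 97.6 CPM. The 2 members that fell were F13a1, coagulation factor XIII, from 231 and 235 to 134 and 123 CPM, and Mmp12, an elastase, from 417 and 364 to 347 and 301 CPM. Mmp12 was not called with no group weights. In the separate list of arginine and polyamine metabolism Srm, spermidine synthase, went from 16.2 and 10.8 to 82.3 and 79.6 CPM. Slc7a1, a further arginine carrier, went from 37.5 and 31.8 to 107 and 112 CPM. Smox, which oxidises spermine, fell from 85.3 and 89.9 to 55.9 and 58.2 CPM. Of 15 compared members of the arginine and polyamine list, Arg1 and Slc7a2 among them, 6 rose and 1 fell.

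**Figure D2:**
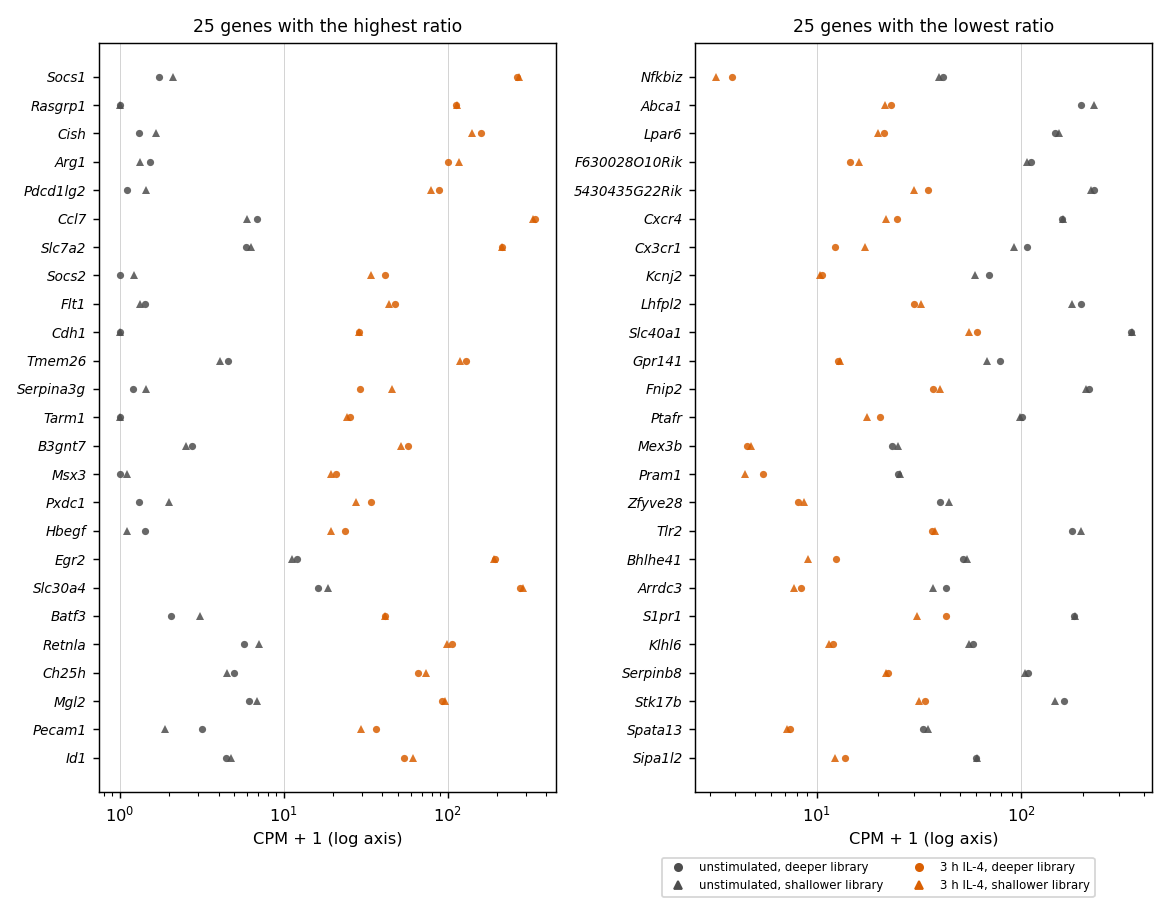
CPM + 1 (log axis) of each of the 4 libraries for the 25 genes with the highest and the 25 with the lowest ratio of group means, circles for deeper and triangles for shallower libraries, grey for unstimulated and orange for 3 h of IL-4. In none of the 50 genes do the groups overlap, as the rule for choosing them required.

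To see whether the most raised genes carry letters that STAT proteins bind near their start, RefSeq promoter windows (build GRCm38.p6, 250 bases before to 50 after each gene's start) were searched on both strands. The motif TTCNNNNGAA is the spacing STAT6 prefers and TTCNNNGAA the spacing of other STAT proteins; a match is a description of letters and not evidence of binding. Of the 25 genes with the highest ratio 19 were matched to a window by symbol or synonym, and 7 of them held one spacing or the other. For Arg1 and Cdh1 the match was by synonym to the windows of other genes, Tinagl1 and Fzr1. Their own starts were therefore not searched. Both are counted in the shares of risen genes below, and other matches by synonym were not checked. Rasgrp1, Cish, Serpina3g and Batf3 held TTCNNNGAA, and 3 genes held TTCNNNNGAA. These 3 are shown because they join the largest rises to the letters of the motif, which stand in capitals, with the bases on either side, and are read 5′ to 3′ on the plus strand:
Pdcd1lg2, chr19:29410817-29410866: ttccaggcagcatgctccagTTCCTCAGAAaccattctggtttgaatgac
Tmem26, chr10:68723499-68723548: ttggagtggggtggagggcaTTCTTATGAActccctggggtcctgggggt
Tmem26, chr10:68723685-68723734: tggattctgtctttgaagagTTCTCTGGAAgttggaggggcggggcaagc
Retnla, chr16:48842444-48842493: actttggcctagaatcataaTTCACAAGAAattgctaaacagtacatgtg
The motifs began 82 bases before the start in Pdcd1lg2, 227 and 41 bases before it in Tmem26, and 145 bases before it in Retnla. Pdcd1lg2, the ligand PD-L2 of the inhibitory receptor PD-1, went from 0.104 and 0.442 to 87.4 and 78.5 CPM, and Tmem26, a membrane protein, from 3.55 and 3.09 to 128 and 118 CPM. The motif stood in 43 of 441 matched genes (9.75%) that rose beyond 2-fold, in 17 of 312 (5.45%) that fell beyond 2-fold and in 553 of 8370 (6.61%) of the other genes compared. Its share was 8.01% over all 27025 genes with a window. Among the 31 matched genes that rose at least 8-fold, 5 (16.1%) held it. TTCNNNGAA stood in 10.4% of the risen, 10.3% of the fallen and 8.10% of the other genes compared, and in 9.55% of all genes with a window. Among the 31 that rose at least 8-fold, 5 (16.1%) held TTCNNNGAA, the same share as for TTCNNNNGAA.

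Transcription factors changed in both directions, with more rises. Of 59 macrophage factors and co-regulators compared, 33 rose and 18 fell, 18 and 2 of them beyond 2-fold, and with no group weights 26 rose and 11 fell. Batf3, a basic leucine zipper factor, went from 1.04 and 2.10 to 40.2 and 40.6 CPM, and Irf4, a known partner of STAT6 in alternative activation, from 16.8 and 19.1 to 150 and 159 CPM. Nfil3 rose from 11 and 12.1 to 156 and 152 CPM (log2 difference 3.63, SE 0.09, limma adjusted p = 8.5e-15). The repressor Bhlhe41 fell from 50.9 and 53.0 to 11.4 and 8.0 CPM, and Nr3c1, the glucocorticoid receptor, from 165 and 151 to 57.4 and 60.9 CPM.

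The early-response factors split. Among 29 compared, 15 rose and 10 fell, with 6 beyond 2-fold each way. Egr2 went from 11.1 and 10.2 to 192 and 190 CPM (log2 difference 4.05, SE 0.08, limma adjusted p = 6.0e-16), Myc from 14.2 and 15.1 to 123 and 111 CPM, and Klf4 from 11.7 and 13.4 to 69.1 and 77.5 CPM. Fos, a component of AP-1, fell from 69.7 and 60.9 to 13.8 and 14 CPM (log2 difference -2.15, SE 0.13, limma adjusted p = 1.2e-09). Klf6 fell from 353 and 328 to 136 and 132 CPM. None of these genes had overlapping groups. Nr4a1, an orphan nuclear receptor induced early by many stimuli, fell from 6.47 and 5.96 to 0.981 and 1.35 CPM, a call that the count-based variant limma-voom did not make.

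Genes that build ribosomes rose almost as a block. Of 50 assembly and processing factors compared, 49 rose, 0 fell and 35 rose beyond 2-fold, with a median log2 difference of 1.26. With no group weights 42 rose. Their summed mean level went from 1850 to 4129 CPM. Ppan rose from 12.8 and 13.5 to 63.9 and 62.8 CPM (log2 difference 2.19, SE 0.11, limma adjusted p = 4.7e-11). Grwd1, a chaperone of a large-subunit protein, went from 14.1 and 14.2 to 64.5 and 56.8 CPM, and Gnl3, nucleostemin, from 22.6 and 18.3 to 87.1 and 81.3 CPM. The member that was not called was Npm1, nucleophosmin, at 128 and 115 CPM without and 124 and 123 CPM with IL-4, named because it is the single exception. The E-box CACGTG holds the letters that MYC and related factors bind. It stood in a promoter window of 8 of the 45 matched genes of this list (17.8%). The share was 14.3% of all matched genes that rose beyond 2-fold and 12% of those that did not change beyond 2-fold. Over all genes with a window it was 8.09%.

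Other growth-related lists moved less. Among 24 genes of the citrate cycle 11 rose and 0 fell, none beyond 2-fold, and Fh1, fumarase, went from 112 and 125 to 202 and 192 CPM. With no group weights 8 rose. Of 28 glycolysis genes 9 rose and 2 fell, and with no group weights 6 and 0. The glucose carrier Slc2a1 rose from 42.1 and 38.6 to 105 and 107 CPM. The amino acid carrier Slc7a5, counted here with the stress response, rose from 11.2 and 8.61 to 79.4 and 79.8 CPM (log2 difference 2.90, SE 0.14, limma adjusted p = 6.8e-11). Fasn, fatty acid synthase, rose from 117 and 129 to 286 and 277 CPM, whereas in the same list of 31 sterol and fatty acid genes Fads1, a desaturase, fell from 202 and 210 to 122 and 115 CPM. That list counted 12 rises and 4 falls, and with no group weights 6 and 2.

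Cell cycle genes mostly fell or did not pass. Of 42 compared, 2 rose and 20 fell, with 1 and 3 beyond 2-fold and a median log2 difference of -0.28, and with no group weights 1 rose and 13 fell. Cdkn1a, which encodes the cell cycle inhibitor p21, rose from 231 and 220 to 705 and 749 CPM (log2 difference 1.68, SE 0.07, limma adjusted p = 6.3e-12). The members that fell beyond 2-fold were Cdkn1b, the inhibitor p27, from 68.6 and 63.8 to 27.0 and 27.4 CPM, Rb1, the retinoblastoma protein that restrains entry into S phase, from 97.9 and 88.1 to 41.5 and 41.9 CPM, and Ccne2, cyclin E2, from 22.0 and 18.1 to 8.02 and 10.9 CPM. Ccne2 was not called with no group weights. Of 29 regulators of cell death 7 rose (24.1%) and 11 fell (37.9%), and with no group weights 6 and 7. Of all genes compared 24.7% rose and 24.9% fell. The pro-death genes Bmf and Pmaip1 fell, Bmf from 48.6 and 61.4 to 13.3 and 12.2 CPM and Pmaip1 from 13.8 and 10.7 to 3.74 and 4.63 CPM, while the survival kinase gene Pim3 rose from 13.6 and 11.9 to 78.5 and 74.9 CPM.

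**Figure D3:**
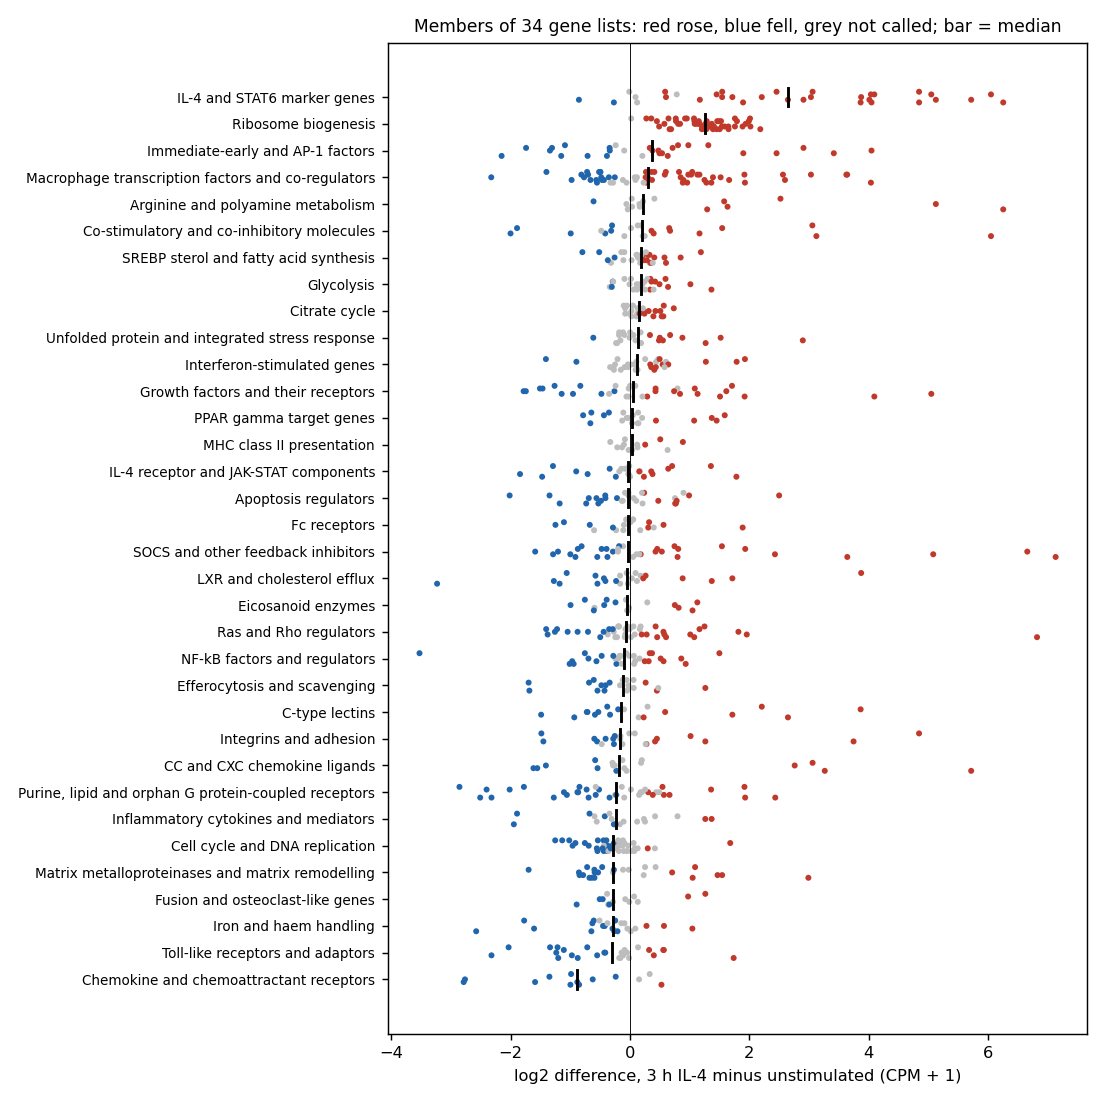
Log2 difference at 3 h (CPM + 1, IL-4 minus unstimulated) of every compared member of each gene list, 1 row per list, in red where they rose, blue where they fell and grey where they did not pass the test, with a black bar at the list's median. IL-4 and STAT6 markers (median 2.65) and ribosome biogenesis (median 1.26) stand highest, and chemokine and chemoattractant receptors lowest (median -0.88).

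Receptors with which macrophages sense their surroundings were among the genes that fell furthest. Of 13 chemokine and chemoattractant receptors compared, 1 rose and 10 fell, 4 of them beyond 2-fold, with a median log2 difference of -0.88. With no group weights 0 rose and 8 fell. Cxcr4 fell from 157 and 160 to 23.5 and 20.7 CPM (log2 difference -2.79, SE 0.09, limma adjusted p = 1.9e-13), and Cx3cr1 from 105 and 91.0 to 11.3 and 16.2 CPM. Cxcr3, the member that rose, went from 7.93 and 7.84 to 11.6 and 12 CPM.

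G protein-coupled receptors for purines and lipids, listed together with orphan receptors, were divided. Of 38 compared, 9 rose and 18 fell, with 4 and 9 beyond 2-fold, and with no group weights 8 and 13. Lpar6, a receptor for lysophosphatidic acid, fell from 146 and 152 to 20.4 and 19.0 CPM (log2 difference -2.86, SE 0.07, limma adjusted p = 2.3e-14). S1pr1, which senses sphingosine 1-phosphate, fell from 180 and 182 to 42.0 and 29.98 CPM, and Ptafr, the receptor for platelet-activating factor, from 100 and 97.8 to 19.3 and 16.7 CPM. In the other direction P2ry1, an ADP receptor, rose from 5.84 and 3.64 to 29.1 and 29.9 CPM. Ptgir, the prostacyclin receptor, went from 10.2 and 11.8 to 43.8 and 45.0 CPM, and Ltb4r1, a leukotriene B4 receptor, from 1.88 and 3.97 to 13.2 and 13.7 CPM.

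Toll-like receptors fell more often than they rose. Of 26 receptors and adaptors, 5 rose and 13 fell, with 1 and 7 beyond 2-fold, and with no group weights 2 rose and 11 fell. Tlr2, which detects bacterial lipoproteins, fell from 177 and 194 to 35.6 and 37.0 CPM (log2 difference -2.32, SE 0.08, limma adjusted p = 1.6e-12). Tlr13, which detects bacterial ribosomal RNA, fell from 662 and 616 to 160 and 150 CPM. The member that rose beyond 2-fold was Ripk2, the kinase that acts below NOD receptors, from 12.5 and 14.8 to 45.3 and 50.4 CPM. In the list of NF-kB factors and regulators, 9 of 30 rose and 10 fell, and with no group weights 3 and 8. Nfkbiz, an IκB-like co-activator, fell from 40.6 and 38.6 to 2.85 and 2.22 CPM, the lowest ratio of all named genes (log2 difference -3.53, SE 0.15, limma adjusted p = 1.1e-11).

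Secreted messengers did not move as one group. Of 18 chemokine ligands 4 rose (22.2%) and 6 fell (33.3%), and with no group weights 4 and 4. The monocyte attractants Ccl7 and Ccl2 rose, Ccl7 from 5.84 and 4.97 to 342 and 331 CPM and Ccl2 from 25.2 and 21.8 to 233 and 235 CPM. Ccl24, an eosinophil attractant, went from 0.626 and 0.331 to 11.5 and 11.1 CPM. Ccl3 fell from 30.05 and 28.7 to 8.47 and 9.35 CPM and Cxcl2, a neutrophil attractant, from 3.34 and 5.96 to 0.981 and 0.771 CPM. Of 19 inflammatory cytokines and mediators 2 rose and 6 fell, and with no group weights 2 and 3. Tnf fell from 23.7 CPM in each library to 5.53 and 5.30 CPM, and Il10, which dampens inflammation, rose from 8.24 and 8.28 to 21.7 and 20.8 CPM. Among 33 interferon-stimulated genes 10 rose (30.3%) and 2 fell (6.06%), and with no group weights 5 and 2. Irf7 went from 105 and 106 to 417 and 389 CPM.

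Growth factors and their receptors held opposite changes within the vascular endothelial growth factor system. Flt1, VEGF receptor 1, went from 0.417 and 0.331 to 46.4 and 42.8 CPM (log2 difference 5.05, SE 0.18, limma adjusted p = 1.4e-12). Kdr, VEGF receptor 2, fell from 4.49 and 4.53 to 0.446 and 0.868 CPM, and the co-receptor Nrp1 from 520 and 519 to 174 and 191 CPM. The ligand Vegfa fell from 16.5 and 23.4 to 5.88 and 4.24 CPM, a call not made with no group weights. Hbegf, a ligand of the epidermal growth factor receptor, rose from 0.417 and 0.110 to 22.6 and 18.5 CPM. In all, 13 of 32 members rose and 10 fell, and with no group weights 11 and 6.

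Molecules by which macrophages meet T cells also split. Of 22 co-stimulatory and co-inhibitory genes 9 rose and 6 fell, and with no group weights 8 and 3. Cd40 rose from 12.3 and 14.1 to 126 and 120 CPM and Cd274, the ligand PD-L1, from 27.5 and 27.9 to 243 and 234 CPM (log2 difference 3.06, SE 0.09, limma adjusted p = 1.9e-13). Icosl fell from 51.5 and 58.8 to 13.2 and 12.8 CPM, and Tnfsf9, the 4-1BB ligand, from 15.9 and 17.1 to 3.65 and 3.76 CPM. Among 13 genes of MHC class II presentation 3 rose and 0 fell, none beyond 2-fold, and with no group weights 1 rose. H2-DMa, which helps to load peptides, went from 39.9 and 53.2 to 85.0 and 87.2 CPM, and with limma-voom neither it nor any other member of the list was called.

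Surface lectins and adhesion molecules changed by large factors in single members. Of 18 C-type lectins 6 rose and 9 fell, and with no group weights 5 and 4. Mgl2 and Clec10a, galactose-type lectins, rose, Mgl2 from 5.11 and 5.85 to 91.6 and 95.4 CPM and Clec10a from 18.3 and 23.3 to 138 and 131 CPM. Clec7a, dectin-1, rose from 94.5 and 85.5 to 427 and 412 CPM, while Clec4e, Mincle, fell from 40.3 and 39.7 to 15.2 and 12.1 CPM. Among 23 integrins and adhesion genes 7 rose (30.4%) and 8 fell (34.8%), and with no group weights 5 and 4. Pecam1, the adhesion molecule CD31, went from 2.19 and 0.883 to 35.6 and 28.7 CPM, and Itga4, the integrin α4 chain, fell from 204 and 215 to 72.5 and 75.9 CPM. The inhibitory IgG receptor Fcgr2b rose from 238 and 269 to 975 and 907 CPM. In its list of Fc receptors 18 genes were compared, of which 4 rose (22.2%) and 4 fell (22.2%), and with no group weights 2 and 3.

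Among genes of cholesterol and iron export Abca1 and Slc40a1 fell and Abcg1 rose. Abca1, which moves cholesterol out of the cell, fell from 194 and 226 to 22.1 and 20.6 CPM, 9.82-fold lower in the mean (log2 difference -3.23, SE 0.15, limma adjusted p = 3.2e-11). Abcg1, its partner in efflux, rose from 65.2 and 73.9 to 195 and 168 CPM, and Ch25h, which makes 25-hydroxycholesterol, went from 3.96 and 3.53 to 65.0 and 72.6 CPM. Of 23 members of that list 6 rose and 9 fell, and with no group weights 4 and 7. Among 23 genes of iron and haem handling 3 rose and 13 fell, and with no group weights 2 and 6. Slc40a1, the iron exporter ferroportin, fell from 345 and 346 to 59.6 and 54.5 CPM. Hmox1, which breaks down haem, fell from 791 and 773 to 234 and 222 CPM, and Nfe2l2, the oxidative stress factor NRF2, from 343 and 319 to 113 and 103 CPM. Tfrc, the transferrin receptor that brings iron in, rose from 121 and 102 to 240 and 221 CPM.

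The largest shifts in CPM came with ratios of very different size. Mrc1, the mannose receptor, had 2953 and 2865 CPM without IL-4 and a mean of 4380 CPM with it, 1.51-fold higher. The proton pump subunit gene Atp6v0a1 had 396 and 444 CPM without and a mean of 1665 CPM with IL-4, and Sdc4, syndecan 4, had 167 and 161 CPM without and a mean of 1311 CPM with it, 8.0-fold higher. On the other side Stab1, a scavenger receptor, had 4807 and 6083 CPM before and a mean of 3362 CPM after IL-4. Fth1, ferritin heavy chain, had 8493 and 8340 CPM before and a mean of 6274 CPM after. These 5 genes passed the limma test, with the IL-4 value entered as 1 mean. The largest fall in CPM was that of Lyz2, from a mean of 30727 to 24471 CPM. It did not pass (log2 difference -0.33, SE 0.24, limma adjusted p = 0.28). Apoe, Gpnmb and Ctsb, also among the 10 largest falls in CPM, did not pass either (limma adjusted p = 0.14, 0.080 and 0.27).

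Genes known as PPARγ targets showed little common movement at this time. Of 20 compared, 5 rose and 5 fell, 10 did not pass and the median log2 difference was 0.04, and with no group weights 4 rose and 3 fell. Tgm2, transglutaminase 2, rose from 85.7 and 107 to 259 and 268 CPM. Plin2, which coats lipid droplets, fell from 396 and 375 to 249 and 242 CPM, and Fabp4, a fatty acid carrier, from 8.76 and 8.83 to 5.17 and 5.21 CPM. Plin2 was not called with no group weights and Fabp4 not by limma-voom.

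A separate experiment of the series, with its own table, read cells after 24 h of IL-4 or vehicle. Its values are set beside those at 3 h with no test, because the tables were scaled separately. Of the 552 genes that rose beyond 2-fold at 3 h, 210 (38.0%) were at least 2-fold higher than vehicle at 24 h, 324 (58.7%) lay within 2-fold and 18 (3.26%) were at least 2-fold lower. Of the 409 that fell, 174 (42.5%) were at least 2-fold lower at 24 h, 231 (56.5%) within 2-fold and 4 (0.978%) at least 2-fold higher. Over all genes compared, 5.69% were at least 2-fold higher and 6.28% at least 2-fold lower at 24 h. Some genes stood further from vehicle at the later time: the means of Retnla were 18413 CPM at 24 h and 5.22 CPM in vehicle, those of Fn1, fibronectin, 635 and 3.27 CPM, and those of Arg1 775 and 0.146 CPM. At 3 h Fn1 had stood at 2.09 and 1.99 CPM without and at 8.02 and 7.71 CPM with IL-4.

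Other named genes stood on the opposite side of the control at 24 h. Among the named genes that rose beyond 2-fold, 6 were at least 2-fold lower than vehicle at 24 h. They were Ch25h, with means of 0.205 CPM in IL-4 and 1.71 CPM in vehicle, Ccl12, Il10, Irf7, Zbp1 and Il4ra. Irf7 had 154 CPM in IL-4 and 783 CPM in vehicle, and Il4ra 198 and 493 CPM. The controls of the 2 experiments differed. In the unstimulated cells of the 3 h experiment the means were 105 CPM for Irf7, 299 CPM for Il4ra and 3.75 CPM for Ch25h. The part of this difference in the opposite directions was not tested. Fos and Hmox1, which fell at 3 h, were at 81.2 and 795 CPM in IL-4 and 78.9 and 692 CPM in vehicle at 24 h. Nfkbiz, in contrast, stood at 2.20 CPM in IL-4 and 48.9 CPM in vehicle.

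**Figure D4:**
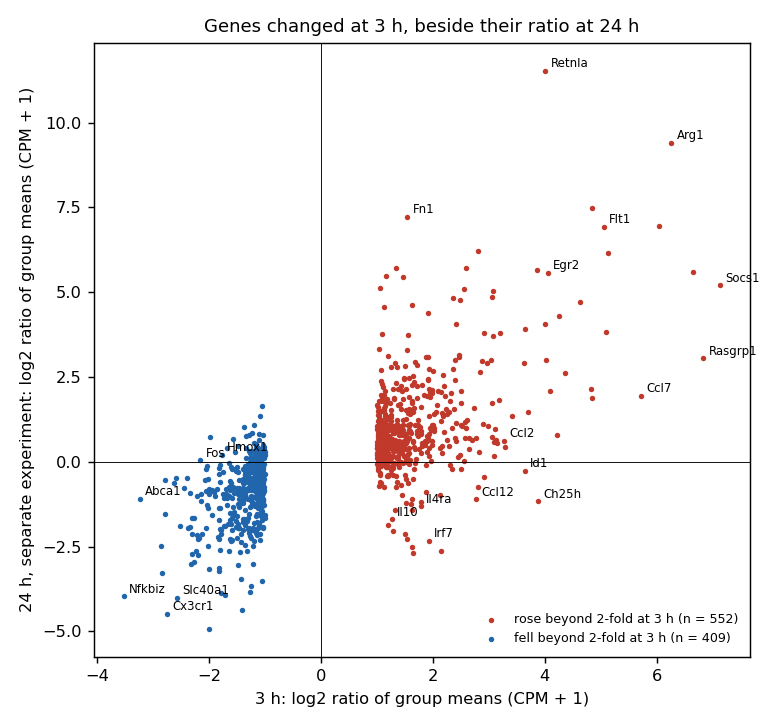
Log2 ratio of group means (CPM + 1) after 24 h of IL-4 in a separate experiment against the same ratio after 3 h, for genes that rose or fell beyond 2-fold at 3 h. Of the 552 risen genes 210 lie at or above 1 on the vertical axis and 18 at or below -1, and of the 409 fallen genes 174 lie at or below -1.

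Cells labelled as Pparg knockout received the same first exposure, and their response could be tested against the wild-type one since no library is shared. The gene-level values do not check the label: Pparg stood at 22.3 and 19.9 CPM without and 29.2 and 26.0 CPM with IL-4 in the libraries labelled knockout, and the labels do not say which part of the gene was deleted or how. In these cells 21.6% of the 11208 genes compared rose and 22.9% fell. Of the 552 genes that rose beyond 2-fold in wild-type cells, 540 were compared in the labelled knockout cells, where 531 rose and 0 fell, with a median log2 difference of 1.38 beside 1.41 in wild-type cells. Of the 409 that fell, 408 were compared, of which 395 fell and 0 rose, with medians of -1.24 and -1.26.

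The difference between the genotypes' responses passed the test in 3 of 11494 genes (0.0261%), and 1444 had an unadjusted p under 0.05. With no group weights and with limma-voom it passed in 0, and these had 257 and 248 genes at an unadjusted p under 0.05. It also passed in 0 genes without the shallower unstimulated wild-type library, the deeper IL-4 wild-type library or the deeper IL-4 labelled knockout library, and in 10 greater and 9 smaller without the shallower IL-4 wild-type library. Gm19434 had 0.209 and 0 CPM without and 4.37 and 3.47 CPM with IL-4 in wild-type cells and was listed at 0 in every labelled knockout library, so its difference is the wild-type response alone. 8430419L09Rik went from 17.9 and 19.0 to 43.6 and 42.9 CPM in wild-type cells and from 13.1 and 11.4 to 10.3 and 12.3 CPM in labelled knockout cells. Spdl1, a spindle protein, went from 39.9 and 38.6 to 19.6 and 22.5 CPM in wild-type cells and from 29.6 and 26.5 to 26.8 and 29.3 CPM in labelled knockout cells. A set of 137 genes, none of them among those named, was chosen for a split between the libraries of pretreated wild-type cells not restimulated. Their sum there was 16484 CPM in the deeper and 1400 CPM in the shallower library, as the choice required. In the libraries labelled knockout it was 1782 to 1958 CPM. In the 4 libraries of the wild-type comparison it was 13096 to 16531 CPM. The part of this set in the difference between the genotypes was not tested.

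**Figure D5:**
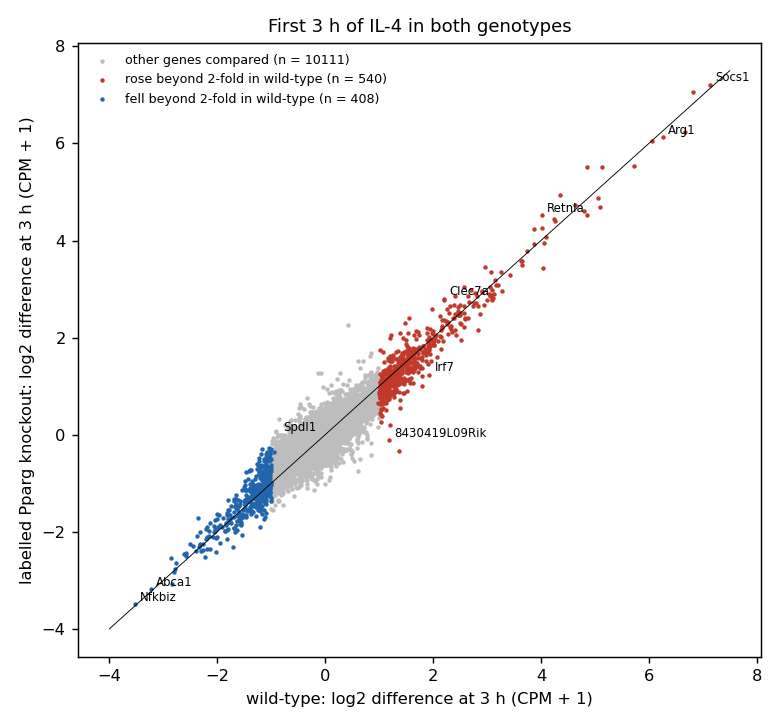
Log2 difference at 3 h (CPM + 1) in cells labelled as Pparg knockout against that in wild-type cells for genes compared in both, with the line of equal response. Of the 540 coloured genes that rose beyond 2-fold in wild-type cells 531 also rose in the labelled knockout cells, and of the 408 that fell 395 also fell.

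The first exposure was also set against a second one, in wild-type cells that had had IL-4 for 24 h, a wash and 24 h without it. The difference between the responses passed in 2 of 12074 genes (0.0166%), and 724 had an unadjusted p under 0.05. Cd274 went from 27.5 and 27.9 to 243 and 234 CPM at the first exposure and from 74.9 and 82.5 to 152 and 103 CPM at the second. Slc37a2, a sugar phosphate carrier, went from 307 and 314 to 964 and 978 CPM at the first exposure and from 275 and 269 to 397 and 227 CPM at the second. In one restimulated library fibroblast genes were high, with Col1a1 at 492 CPM beside 16.9 CPM in the other, and their part in the result was not tested. The restimulated group had a weight of 0.0787 in the fit, and with no group weights 91 genes had a greater and 11 a smaller response at the first exposure. Without that restimulated library, or without any 1 of the 4 libraries of the first exposure, 0 genes passed. Without the other restimulated library 6 were greater and 309 smaller, and without the deeper library of pretreated cells that were not restimulated 54 and 288. That last setting leaves the shallower library, in which the set of 137 genes summed to 1400 CPM, as the group's single library, and its part in the counts was not tested. Leaving out the shallower one instead gave 4 greater and 1 smaller.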

How the data were processed

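Per the labels' protocols, macrophage RNA was turned into poly-A libraries for an Illumina HiSeq with a kit that does not mark strand, so reads of overlapping or antisense genes cannot be told apart. The build mm10 and the tools Cufflinks 2.0.2 and TopHat2 2.0.7 are named per the submitters' processing notes; what each did is not given in the sources used here. The deposited unit is recorded as signal: the authors deposited, for each group, the mean of its 2 samples in reads scaled to library size (CPM).

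Each mean was separated into whole reads of 2 libraries from the size of 1 read in each, which gave 1 solution for 99.6% of the values above 0 in the 2 columns compared. The separation and the test were run on simulated data in which all groups had the same spread. The weights of the real groups ran from 0.0787 to 2.29, so the simulation does not cover groups of unequal spread. Levels were tested with limma 3.58.1 (R 4.3.3, Python 3.11.15) on log2(CPM + 1), with all 8 groups of the table, 1 weight per group and Benjamini-Hochberg adjustment over genes whose mean reached 1 CPM in one column or the other. A value that could not be separated entered once with weight 2. Fold changes on the log2(CPM + 1) scale understate the change of low genes.

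The members, the 34 gene lists and the rules were chosen with earlier results of these data known. Genes named are the 25 highest and 25 lowest ratios among called genes with separated, non-overlapping libraries and at least 5 CPM, up to 4 called members each way of each list by ratio, the 10 largest rises and falls in CPM, genes at 0 in 1 column, genes called in the contrasts of responses, and the IL-4 signal chain with Pparg. Genes sharing reads with a close copy, such as the Serpina3 family, are uncertain. Alternatives were other weights, samples, offsets, filters, scalings, limma-voom and leaving out each library. Total reads as the scale, and limma-voom for the lists, were chosen after seeing the data. Counting floors of 3 reads cover counting error only.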

Additional observations from a re-analysis of the deposited data

Results flagged for a closer look

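In 3 genes the response to the first 3 h of IL-4 differed between wild-type and labelled knockout cells by a test of the difference itself (limma, Benjamini-Hochberg adjusted). The wild-type minus labelled knockout log2 difference was 2.16 (SE 0.28, limma adjusted p = 0.0093) for Gm19434, 1.30 (SE 0.19, limma adjusted p = 0.028) for 8430419L09Rik and -0.87 (SE 0.14, limma adjusted p = 0.034) for Spdl1. Without group weights the adjusted p was 0.0584, 0.467 and 0.467, and with limma-voom 0.999, 0.732 and 0.781, so none of the 3 passed under either. Gm19434 was at 0 in every labelled knockout library, so its difference equals the wild-type response and holds no spread from the labelled knockout cells.

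In 2 genes the first response differed from the second in wild-type cells by the same kind of test. The first minus second log2 difference was 2.40 (SE 0.33, limma adjusted p = 0.024) for Cd274 and 1.502 (SE 0.23, limma adjusted p = 0.0496) for Slc37a2. Both also passed without group weights and with limma-voom. Leaving out 1 library at a time ended the call of Cd274 in 5 of 8 fits (limma adjusted p 0.0606 to 0.166) and that of Slc37a2 in 6 of 8 (0.0578 to 0.157): for both, each of the 4 libraries of the first exposure and the deeper restimulated one, and for Slc37a2 also the shallower restimulated one.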

How the results depend on the processing

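Beyond 2-fold, 548 to 551 genes rose and 407 to 409 fell when each of the 4 libraries was left out in turn, but the offset moved these counts: 625 rose and 548 fell with 0.25 CPM added in place of 1 CPM, and 397 and 264 with 4 CPM. Genes called at any size rose in 2272 to 2448 and fell in 2149 to 2447 cases when each library was left out. Without group weights 1606 rose and 1355 fell, and with limma-voom 1600 and 1381. Of 204 called named genes, 184 were called without group weights and 181 with limma-voom. None of the 204 changed direction in these settings or without single libraries. Changes of sign in named genes that were not called were not counted. Among the 68 list counts, 28 moved by more than 1.5 times without group weights, 26 with limma-voom and 0 with TMM factors or total reads. For the wild-type minus labelled knockout difference, main counts of 2 greater and 1 smaller became 0 and 0 without group weights (257 at an unadjusted p under 0.05) and with limma-voom (248), and 0 to 10 and 0 to 9 without single libraries. For the first minus second difference, 2 greater and 0 smaller became 91 and 11 without group weights, 75 and 4 with limma-voom, and 0 to 54 and 0 to 309 without single libraries. It gave 6 greater and 309 smaller without the shallower restimulated library, and 54 and 288 without the deeper library of the pretreated cells. No paired analysis was possible because the separated libraries carry no replicate numbers. Depth limits genes near 3 reads, and values that could not be separated have no spread.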

Other observations

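Gene families grouped by symbol, chosen after their values were seen, add to the picture of the first 3 h. Of 39 proteasome subunit genes (Psm) 29 rose and 0 fell, none beyond 2-fold, with a median log2 difference of 0.31. Of 76 mitochondrial ribosomal protein genes (Mrpl and Mrps) 48 rose and 0 fell, with a median of 0.34, while of 76 cytosolic ribosomal protein genes (Rpl and Rps) 12 rose and 0 fell, with a median of 0.19. All 7 chaperonin subunit genes (Cct) rose, with a median of 0.55, and 13 of 17 tRNA synthetase genes rose and 0 fell, with a median of 0.50. Genes of RNA polymerases I and III rose in 10 of 15 cases and fell in 1. Of 297 zinc finger genes named Zfp 30 rose and 71 fell, with a median of -0.16, and the share that fell was close to that of all genes. For comparison, 24.7% of all genes compared rose and 24.9% fell.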
